A study of Homo sapiens with 6 samples.

Results

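The genes of DNA damage signalling and repair comprised 45 members, chosen by name and grouped here as checkpoint, homologous recombination, Fanconi, mismatch and end-joining genes. All 45 were found among the 57688 rows of the expression table, and 43 had a mean of at least 1 FPKM (fragments per kilobase of gene, scaled to sequencing depth) over the 6 libraries and were tested. The cells were WM3248, a human line labelled as a VGP primary melanoma. One group, siPGC1a, had been given 30 nM of an siRNA against PPARGC1A, the gene of the transcriptional coactivator PGC1-alpha, and the other, siNC, 30 nM of a negative control siRNA. Each group had 3 libraries (n = 3), prepared from RNA taken 48 h after lipid transfection and read as single reads of 50 bases. All libraries came from 1 cell line and 1 siRNA per group. The labels do not say that the libraries were separate cultures, so p-values reflect only how far these libraries differ, a spread that may be technical. The comparison asks which repair transcripts differ once PPARGC1A is targeted.

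Cells sense broken or stalled DNA through the kinases ATM and ATR, which pass the signal to the effector kinases CHEK2 and CHEK1 and hold the cell cycle. Double-strand breaks are mended by homologous recombination, which copies the intact sister chromatid and works in S and G2 phase, or by end joining, which ligates the ends directly and works throughout the cycle. The Fanconi pathway unhooks crosslinks between the strands, and mismatch repair corrects errors of replication. In skin, ultraviolet light makes repair a constant need of melanocytes, and in melanoma these pathways bear on the response to genotoxic drugs.

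The libraries held 25140000 to 26430000 reads, as recovered from the steps of the FPKM values. PPARGC1A stood at 0.4, 0.354 and 0.413 FPKM in the siPGC1a libraries, against 0.932, 1.042 and 0.947 FPKM in the siNC libraries. Its transcript was lower in all siPGC1a libraries, with means of 0.389 ± 0.031 FPKM in siPGC1a and 0.974 ± 0.0597 FPKM in siNC (SD, n = 3 each; log2 difference -0.51, SE 0.0659, limma adjusted p = 0.000234). Melanocyte lineage markers were present, 8 of 9 having a mean of at least 1 FPKM, with a summed level of 1417.0 to 1425.6 FPKM in siPGC1a and 1442.2 to 1482.3 FPKM in siNC. Genes within this sum moved both ways. DCT averaged 253.3 ± 12.4 FPKM in siPGC1a and 393.9 ± 11.2 FPKM in siNC, and S100B 923.9 ± 24.2 FPKM in siPGC1a and 801.9 ± 9.71 FPKM in siNC (SD, n = 3 each). DCT, MITF, PMEL and MLANA were called lower and S100B higher, while SOX10, TYR and PAX3 did not pass and TYRP1 was not tested. Of 5 keratinocyte markers 1 reached a mean of 1 FPKM: their summed level of 20.7 to 25.8 FPKM in siPGC1a and 20.5 to 21.3 FPKM in siNC was nearly all KRT10, at 22.4 ± 2.66 FPKM in siPGC1a and 20.6 ± 0.412 FPKM in siNC (SD, n = 3 each), while KRT1 was listed at 0 in every library. The summed level of 5 immune markers was 1.7 to 2.49 FPKM in siPGC1a and 1.6 to 1.97 FPKM in siNC, with PTPRC listed at 0 in every library, and that of 3 endothelial markers 0.155 to 0.222 FPKM in siPGC1a and 0.249 to 0.362 FPKM in siNC. Fibroblast markers, which melanoma cells can also express, summed to 9.17 to 10.7 FPKM in siPGC1a and 13.3 to 14.2 FPKM in siNC. The part of these other markers in the results on the members was not tested. Across all genes, 5782 of 12020 tested (48.1%) passed the limma threshold (adjusted p under 0.05), so a call by itself was common.

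Repair genes leaned higher in siPGC1a. Of the 43 tested members, 20 rose (46.5%), 2 fell (4.65%) and 21 did not pass, whereas among all tested genes 25.6% rose and 22.5% fell. The median member difference was 0.12 on the log2(FPKM + 1) scale, against 0.01 over all tested genes. The changes were modest: the ratio of siPGC1a to siNC means among the risers lay between 1.13, for MSH6, and 1.52, for FANCA. EXO1, FANCA and RAD54L rose most on the log2(FPKM + 1) scale, and the genes that fell were NBN and FANCF. The siPGC1a values lay wholly above the siNC values for 21 tested members and wholly below for 2, compared with 29.8% and 27.4% of all tested genes. Of the 22 called members, RAD51AP1 was the one whose groups overlapped, and XRCC2 and WRN had separate groups without passing the threshold. XRCC2, which is among the 21, met the filter only through its siPGC1a values, its siNC mean being 0.935 FPKM. Where the groups did not overlap, the exact two-sided permutation p was 0.1, the smallest that 3 against 3 libraries can give. Exons of 12 members overlap those of another tested gene, mostly on the opposite strand, and the strand setting of the counting is not given in the sources used here. Of those 12, 9 rose (75.0%) and 0 fell, with a median log2 difference of 0.23. Without those members, 11 of 31 (35.5%) rose and 2 (6.45%) fell, with a median of 0.08. Leaving out also the members that have a pseudogene copy named after them in the annotation (CHEK2, RAD51AP1, RBBP8, FANCD2, PMS2 and XRCC6), which may share their reads, left 26, of which 8 (30.8%) rose and 2 (7.69%) fell, with a median log2 difference of 0.07.

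**Figure D1:**
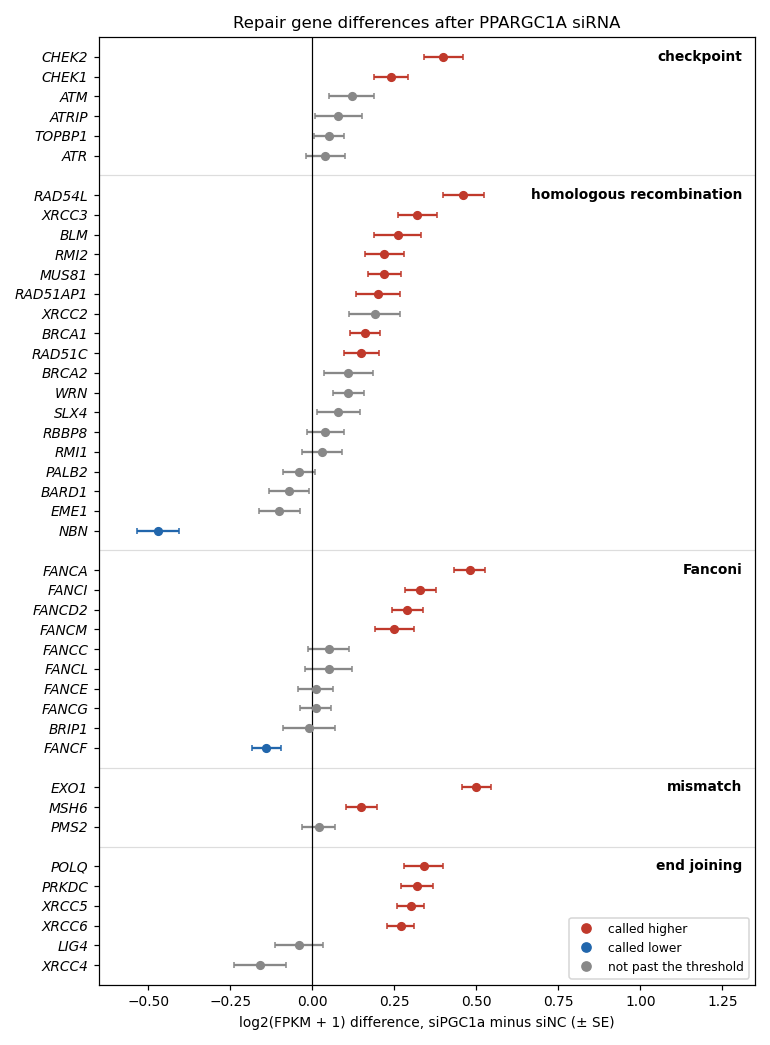
Difference in log2(FPKM + 1), siPGC1a minus siNC, for the 43 tested members by group, with bars of ± SE from limma and colours for the call (n = 3 libraries each). Values run from -0.47 for NBN to 0.5 for EXO1, and most members lie right of 0.

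S phase markers moved in the same direction. Of 17 such genes, which encode replication proteins and are no members, 16 rose (94.1%), 0 fell and 1 did not pass, with a median log2 difference of 0.47. Among all tested genes 25.6% rose and 22.5% fell. This list, like the members and the other lists, was chosen with earlier results of these data known. Its share of risers is therefore no independent evidence. The summed level of the S phase markers was 689.6 to 734.6 FPKM in siPGC1a and 499.3 to 516.1 FPKM in siNC. RRM2, a subunit of ribonucleotide reductase, averaged 20.6 ± 0.952 FPKM in siPGC1a and 12.1 ± 0.35 FPKM in siNC, and CDC45, a helicase factor, 17.0 ± 0.489 FPKM in siPGC1a and 10.6 ± 0.714 FPKM in siNC (SD, n = 3 each). Many recombination and Fanconi genes are known to be transcribed mainly in S phase; the part of S phase genes in the results on the members was not tested. In bulk RNA, more cells in a phase and more RNA per cell cannot be told apart.

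Promoter sequence was available for 38 members and was searched because E2F factors and the CCAAT-binding factor NF-Y are known to drive genes of the cell cycle. The window ran from 250 bases before to 50 bases after the RefSeq start (GRCh38.p14), and both strands were searched for the E2F words TTCCCGC as well as TTGGCGC as well as TTCGCGC as well as TTGCCGC, for the word CCAAT, and for TTTGAA, the word of the cell cycle homology region. An E2F word stood in 21 of 38 member promoters (55.3%), in 12 of 14 S phase markers (85.7%), in 21.4% of the promoters of tested genes and in 13.1% of all promoters. CCAAT stood in 19 member promoters (50.0%), in 37.6% of the promoters of tested genes and in 35.7% of all promoters. TTTGAA stood in 4 member promoters (10.5%), in 9.49% of the promoters of tested genes and in 15.4% of all promoters. Among members that rose, 10 of 16 promoters held an E2F word and 11 held CCAAT, and among members that did not pass, 10 of 20 held an E2F word and 7 held CCAAT. In 0 of the 38 did an E2F word overlap a CCAAT word. A match is a run of letters, not a shown binding site.

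The promoters of the largest risers of each group with a sequence, and of FANCF, which fell, are given from 200 bases before to 30 bases after the start, 5′ to 3′ along the gene, with E2F and CCAAT words of either strand in capitals. They show words that the groups share, such as the E2F word of POLQ, which is that of RAD54L on the other strand, and the TTCGCGC that both EXO1 and FANCF carry, and CHEK2 shows a promoter with 3 CCAAT words and 0 E2F words.
EXO1, chr1:241848004-241848233, plus strand: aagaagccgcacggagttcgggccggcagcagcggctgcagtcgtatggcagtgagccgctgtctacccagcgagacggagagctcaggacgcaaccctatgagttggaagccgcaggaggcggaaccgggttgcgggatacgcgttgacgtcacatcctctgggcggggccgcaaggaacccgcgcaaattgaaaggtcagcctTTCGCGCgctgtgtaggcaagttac
FANCA, chr16:89816618-89816847, minus strand: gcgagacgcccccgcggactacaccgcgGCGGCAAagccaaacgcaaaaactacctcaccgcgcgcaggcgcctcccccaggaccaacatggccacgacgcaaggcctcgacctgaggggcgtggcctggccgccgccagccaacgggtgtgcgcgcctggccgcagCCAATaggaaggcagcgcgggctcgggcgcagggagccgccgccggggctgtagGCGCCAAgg
RAD54L, chr1:46247488-46247717, plus strand: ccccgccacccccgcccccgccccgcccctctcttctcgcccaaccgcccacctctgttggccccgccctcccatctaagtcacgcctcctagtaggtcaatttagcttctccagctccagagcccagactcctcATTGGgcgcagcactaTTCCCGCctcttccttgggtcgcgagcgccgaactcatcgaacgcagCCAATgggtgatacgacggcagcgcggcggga
POLQ, chr3:121545959-121546188, minus strand: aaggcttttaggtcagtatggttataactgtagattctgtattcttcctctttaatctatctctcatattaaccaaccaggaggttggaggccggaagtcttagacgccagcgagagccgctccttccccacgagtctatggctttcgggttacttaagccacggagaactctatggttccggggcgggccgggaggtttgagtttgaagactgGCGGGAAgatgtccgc
CHEK2, chr22:28741791-28742020, minus strand: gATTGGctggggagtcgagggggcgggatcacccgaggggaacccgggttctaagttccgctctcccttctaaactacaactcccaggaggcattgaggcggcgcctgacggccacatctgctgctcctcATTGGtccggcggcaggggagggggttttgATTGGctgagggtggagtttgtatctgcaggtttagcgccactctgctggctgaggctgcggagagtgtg
FANCF, chr11:22625794-22626023, minus strand: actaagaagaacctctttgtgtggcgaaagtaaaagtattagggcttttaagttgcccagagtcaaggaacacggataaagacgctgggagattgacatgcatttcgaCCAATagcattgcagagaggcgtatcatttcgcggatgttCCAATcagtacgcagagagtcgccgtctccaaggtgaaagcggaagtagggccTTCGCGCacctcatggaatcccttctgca

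Among the checkpoint genes, both effector kinases rose and the upstream kinases did not pass. Of 6 members, 2 rose (33.3%, against 25.6% of all tested genes), 0 fell (against 22.5%) and 4 did not pass. With 6 genes, the share of risers was near that of all tested genes. The median log2 difference of the group was 0.1. CHEK2, the effector kinase of ATM, had 10.632, 9.45 and 11.239 FPKM in siPGC1a, against 7.593, 7.836 and 7.487 FPKM in siNC. Every siPGC1a library was above every siNC library, and the mean was 36.7% higher (log2 difference 0.4, SE 0.0595, limma adjusted p = 0.000488). CHEK1, the effector kinase of ATR, had 4.988, 4.887 and 5.288 FPKM in siPGC1a, against 4.377, 4.004 and 3.989 FPKM in siNC. Its groups were separate too, with a mean 22.6% higher (log2 difference 0.24, SE 0.052, limma adjusted p = 0.00402). ATM, the kinase that answers double-strand breaks, had 6.917, 5.588 and 6.377 FPKM in siPGC1a and 6.035, 5.454 and 5.591 FPKM in siNC. The ATM groups overlapped, and the difference did not pass (limma adjusted p = 0.174), although it did without siPGC1a replicate 2 (limma adjusted p = 0.0262, 0.0262 to 0.501 across settings). ATR, which responds to single-stranded DNA at stalled forks, averaged 3.35 ± 0.243 FPKM in siPGC1a and 3.21 ± 0.177 FPKM in siNC. Its partner ATRIP averaged 1.66 ± 0.163 FPKM in siPGC1a and 1.52 ± 0.163 FPKM in siNC. The ATR activator TOPBP1 averaged 10.3 ± 0.446 FPKM in siPGC1a and 9.98 ± 0.264 FPKM in siNC. The reads of CHEK2 may be shared with its pseudogene copies, among them CHEK2P2, and ATRIP shares 27.9% of its exon bases with TREX1 on the same strand, so both levels are uncertain.

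In homologous recombination, several strand exchange and junction processing genes rose while the break sensor NBN fell. Of 18 tested members, 8 rose (44.4%, against 25.6% of all tested genes), 1 fell (5.56%, against 22.5%) and 9 did not pass. The median log2 difference of the group was 0.13. The count of risers was 5 without siNC replicate 2 or without siNC replicate 3, and 4 without a filter. NBN, the subunit that brings the MRN nuclease and ATM to breaks, had 9.349, 8.168 and 9.45 FPKM in siPGC1a, against 13.7, 12.092 and 12.799 FPKM in siNC. All siPGC1a libraries lay below all siNC libraries, and the mean fell by 30.1% (log2 difference -0.47, SE 0.0631, limma adjusted p = 0.00027). This was a call that held in every setting tried, with limma adjusted p between 4.85e-05 and 0.00683. RAD50, the ATPase of the same complex, was under the filter at 0.366 ± 0.0341 FPKM in siPGC1a and 0.368 ± 0.0176 FPKM in siNC. In the annotation 79.7% of RAD50 exon bases also belong to AC116366.3, a gene on the same strand listed at 0 in every library. Reads of the shared exons may have been split or dropped, so the RAD50 level is uncertain. RBBP8, which starts the resection of broken ends, averaged 4.71 ± 0.128 FPKM in siPGC1a and 4.56 ± 0.355 FPKM in siNC and did not pass (limma adjusted p = 0.596).

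RAD54L, a translocase that helps the recombinase filament invade the sister duplex, had 7.982, 8.376 and 6.957 FPKM in siPGC1a, against 5.207, 5.49 and 5.362 FPKM in siNC. The groups were separate, with a mean 45.2% higher (log2 difference 0.46, SE 0.0624, limma adjusted p = 0.00029). XRCC3, a paralog of the recombinase, had 4.904, 5.613 and 5.028 FPKM in siPGC1a, against 3.834, 4.211 and 3.827 FPKM in siNC. Its mean was 30.9% higher with no overlap (log2 difference 0.32, SE 0.0588, limma adjusted p = 0.00178). RAD51C, another paralog, averaged 4.11 ± 0.0962 FPKM in siPGC1a and 3.6 ± 0.252 FPKM in siNC, and RAD51AP1, which stimulates strand invasion, 8.61 ± 0.783 FPKM in siPGC1a and 7.36 ± 0.489 FPKM in siNC. Both passed narrowly (limma adjusted p = 0.0421 for RAD51C and 0.0333 for RAD51AP1). RAD51C lost its call in 8 settings, each single library left out except siNC replicate 1 among them (limma adjusted p = 0.0655 to 0.151), and had 0.0238 to 0.151 across settings. RAD51AP1 lost its call without siPGC1a replicate 2 (limma adjusted p = 0.0652) or 3 (0.104), without siNC replicate 2 (0.115) or 3 (0.0766) and without a filter (0.139), out of 0.0134 to 0.139. The third paralog, XRCC2, had the lowest mean that passed the filter, 1.22 ± 0.186 FPKM in siPGC1a and 0.935 ± 0.108 FPKM in siNC, and did not pass the test (limma adjusted p = 0.0685), although it did without siPGC1a replicate 2 (limma adjusted p = 0.0384), with quantile scaling (0.0254) and with no variance trend (0.0451), out of 0.0254 to 0.222 across settings. The XRCC2 mean was 29.9% higher in siPGC1a, close to the 30.9% of XRCC3, which passed. The siNC mean of XRCC2 was under the filter of 1 FPKM, so it was tested only through its higher siPGC1a values. Its difference is therefore no independent support for a rise. RAD54B, a relative of RAD54L, stayed under the filter at 0.281 ± 0.0434 FPKM in siPGC1a and 0.269 ± 0.0878 FPKM in siNC.

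Of the tumour suppressors that load the recombinase, BRCA1 rose and BARD1, PALB2 and BRCA2 did not pass. BRCA1, a ubiquitin ligase subunit, had 5.302, 4.989 and 4.997 FPKM in siPGC1a, against 4.523, 4.409 and 4.44 FPKM in siNC. It rose by 14.3% with no overlap between groups (limma adjusted p = 0.0169). That call was lost without siPGC1a replicate 1 (limma adjusted p = 0.0583), siNC replicate 2 (0.0531) or siNC replicate 3 (0.06), out of 0.0127 to 0.06 across settings. Its partner BARD1 averaged 1.44 ± 0.0461 FPKM in siPGC1a and 1.56 ± 0.126 FPKM in siNC and did not pass (limma adjusted p = 0.386). PALB2, the bridge between BRCA1 and BRCA2, averaged 3.94 ± 0.198 FPKM in siPGC1a and 4.07 ± 0.0631 FPKM in siNC. BRCA2, which delivers the recombinase, averaged 1.52 ± 0.144 FPKM in siPGC1a and 1.33 ± 0.172 FPKM in siNC (limma adjusted p = 0.237). The BRCA2 mean was 14.1% higher, close to the 14.3% of BRCA1, so the calls do not part these genes by size of change. BLM, the helicase that dissolves joined duplexes, averaged 3.33 ± 0.376 FPKM in siPGC1a and 2.62 ± 0.153 FPKM in siNC and rose (limma adjusted p = 0.0136), a call lost without a filter (0.076, out of 0.0031 to 0.076). RMI2, a subunit of the BLM complex, rose as well, with 4.38 ± 0.397 FPKM in siPGC1a and 3.6 ± 0.0391 FPKM in siNC (limma adjusted p = 0.0117, but 0.0557 without a filter, out of 0.00356 to 0.0557), whereas RMI1 of the same complex stood at 3.38 ± 0.314 FPKM in siPGC1a and 3.28 ± 0.0449 FPKM in siNC (limma adjusted p = 0.694). MUS81, a nuclease that cuts joined duplexes, rose to 7.54 ± 0.257 FPKM in siPGC1a, against 6.35 ± 0.356 FPKM in siNC (limma adjusted p = 0.00637). Its partner EME1 averaged 4.78 ± 0.264 FPKM in siPGC1a and 5.2 ± 0.432 FPKM in siNC and did not pass (limma adjusted p = 0.2). The helicase WRN averaged 4.11 ± 0.154 FPKM in siPGC1a and 3.73 ± 0.0861 FPKM in siNC (limma adjusted p = 0.0789, but 0.0439 with quantile scaling, out of 0.0439 to 0.188), and the nuclease scaffold SLX4 3.08 ± 0.331 FPKM in siPGC1a and 2.85 ± 0.0781 FPKM in siNC (limma adjusted p = 0.343).

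**Figure D2:**
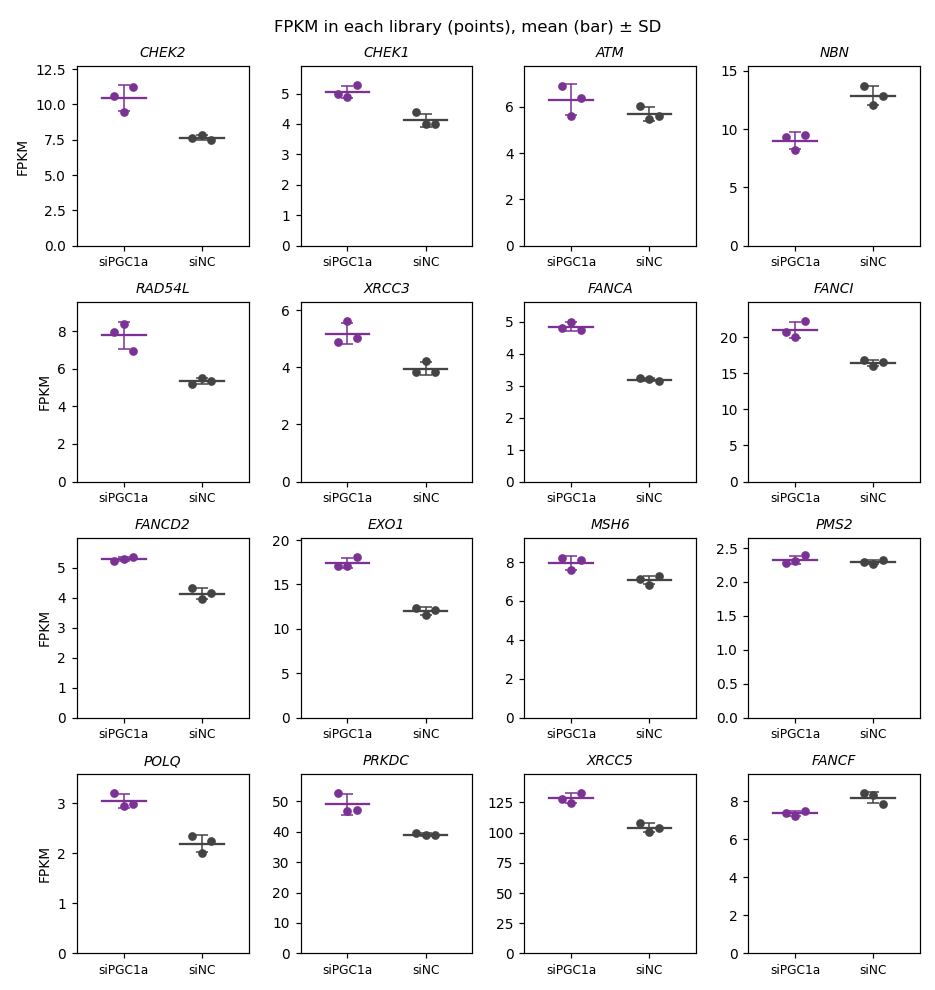
FPKM in each library for the 3 members with the largest difference in each group and for FANCF, with siPGC1a left of siNC, points for libraries, bars for the mean and error bars of ± SD (n = 3 each). NBN is lower in all siPGC1a libraries, at 8.168 to 9.45 FPKM against 12.092 to 13.7 FPKM in siNC, while EXO1 is higher, at 17.108 to 18.045 FPKM against 11.552 to 12.387 FPKM.

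In the Fanconi group the ubiquitinated pair and the anchor of the core complex rose, and most core subunits did not pass. Of 10 members, 4 rose (against 25.6% of all tested genes), 1 fell (against 22.5%) and 5 did not pass. The median log2 difference of the group was 0.05. FANCA, a core complex subunit, had 4.802, 5.01 and 4.737 FPKM in siPGC1a, against 3.24, 3.215 and 3.134 FPKM in siNC. The groups were far apart for their spread, with a mean 51.7% higher (log2 difference 0.48, SE 0.0465, limma adjusted p = 4.28e-05). FANCI, which forms the clamp that the core complex ubiquitinates, had 20.756, 19.997 and 22.276 FPKM in siPGC1a, against 16.874, 16.056 and 16.566 FPKM in siNC. FANCD2, its partner in the clamp, had 5.207, 5.305 and 5.358 FPKM in siPGC1a, against 4.311, 3.95 and 4.147 FPKM in siNC. Both subunits of the clamp rose, FANCI by 27.3% (limma adjusted p = 0.000441) and FANCD2 by 27.9% (limma adjusted p = 0.000808). FANCM, the translocase that anchors the core complex on DNA, averaged 1.98 ± 0.137 FPKM in siPGC1a and 1.52 ± 0.0628 FPKM in siNC (limma adjusted p = 0.00748). FANCF, an adaptor of the core complex, had 7.369, 7.252 and 7.506 FPKM in siPGC1a, against 8.443, 8.313 and 7.856 FPKM in siNC. It fell by 10.1% with no overlap (log2 difference -0.14, SE 0.0445, limma adjusted p = 0.0299), but the call was lost without either of siPGC1a replicates 1 and 2 or siNC replicates 1 and 2, and without a filter (limma adjusted p = 0.0511 to 0.0978, in a range of 0.018 to 0.0978).

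The other core subunits had close group means. FANCC averaged 1.19 ± 0.039 FPKM in siPGC1a and 1.12 ± 0.0819 FPKM in siNC, FANCE 4.64 ± 0.163 FPKM in siPGC1a and 4.6 ± 0.318 FPKM in siNC, and FANCG 4.64 ± 0.178 FPKM in siPGC1a and 4.59 ± 0.131 FPKM in siNC. FANCL, the ubiquitin ligase of the core complex, was the most abundant Fanconi gene, at 22.8 ± 1.81 FPKM in siPGC1a and 21.9 ± 2.0 FPKM in siNC. BRIP1, a helicase that binds BRCA1, averaged 2.11 ± 0.321 FPKM in siPGC1a and 2.13 ± 0.112 FPKM in siNC. Their groups overlapped in each case, and limma adjusted p was 0.516 for FANCC, 0.887 for FANCE, 0.837 for FANCG, 0.562 for FANCL and 0.9 for BRIP1.

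Of the 3 mismatch genes, 2 rose (66.7%, against 25.6% of all tested genes), 0 fell (against 22.5%) and 1 did not pass. EXO1, the exonuclease that removes the mismatched strand and also resects broken ends, had 17.118, 17.108 and 18.045 FPKM in siPGC1a, against 12.387, 11.552 and 12.139 FPKM in siNC. Its mean was 44.9% higher (log2 difference 0.5, SE 0.0442, limma adjusted p = 2.56e-05). This was the largest difference among members on the log2(FPKM + 1) scale, but FANCA stood above EXO1 with a pseudocount of 0.1 (0.59 for FANCA and 0.53 for EXO1), after rescaling to TPM (0.54 and 0.5) and with quantile scaling (0.5 and 0.46). Without siPGC1a replicate 3, RAD54L (0.53) and FANCA (0.49) stood above EXO1 (0.48). Without siNC replicate 2 they did so too, at 0.48 each against 0.47 for EXO1. MSH6, which recognises base mismatches, had 8.214, 7.569 and 8.115 FPKM in siPGC1a, against 7.139, 6.825 and 7.272 FPKM in siNC. This rise of 12.5% passed (log2 difference 0.15, SE 0.0477, limma adjusted p = 0.0263) but was lost in 6 settings, which leave out siPGC1a replicate 1 (limma adjusted p = 0.0847) or 3 (0.064) or siNC replicate 1 (0.0514) or 2 (0.0942), rescale to TPM (0.063) or drop the filter (0.0619), in a range of 0.016 to 0.0942. PMS2, the endonuclease that nicks the new strand, had 2.286, 2.307 and 2.397 FPKM in siPGC1a, against 2.288, 2.264 and 2.318 FPKM in siNC. Its groups overlapped (limma adjusted p = 0.796), and its reads may be shared with copies such as PMS2CL, so its level is uncertain.

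In end joining, the break-recognition kinase complex rose and the ligation pair did not pass. Of 6 members, 4 rose (66.7%, against 25.6% of all tested genes), 0 fell (against 22.5%) and 2 did not pass. The median log2 difference of the group was 0.29. XRCC5 and XRCC6, the subunits of the Ku heterodimer that caps broken ends, were the most abundant of the 45 members per length. XRCC5 had 127.966, 124.7 and 133.211 FPKM in siPGC1a, against 107.991, 100.273 and 104.147 FPKM in siNC. XRCC6 averaged 157.2 ± 6.82 FPKM in siPGC1a and 129.8 ± 2.57 FPKM in siNC. Both subunits rose with no overlap, XRCC5 by 23.5% (log2 difference 0.3, SE 0.0416, limma adjusted p = 0.000325) and XRCC6 by 21.1% (log2 difference 0.27, SE 0.0406, limma adjusted p = 0.000501). PRKDC, the catalytic kinase that Ku recruits, had 52.791, 46.798 and 47.229 FPKM in siPGC1a, against 39.522, 38.773 and 38.845 FPKM in siNC. It rose by 25.3% (log2 difference 0.32, SE 0.0494, limma adjusted p = 0.000674), so all subunits of the kinase complex were higher. POLQ, the polymerase of the alternative end-joining route that uses short matching stretches, had 3.19, 2.946 and 2.98 FPKM in siPGC1a, against 2.338, 2.003 and 2.236 FPKM in siNC. Its mean was 38.6% higher with separate groups (log2 difference 0.34, SE 0.0589, limma adjusted p = 0.00123). XRCC4, which scaffolds the ligase, averaged 3.78 ± 0.252 FPKM in siPGC1a and 4.35 ± 0.596 FPKM in siNC (limma adjusted p = 0.13). Without siNC replicate 2 it was called lower (limma adjusted p = 0.0366, in a range of 0.0366 to 0.425). The ligase itself, LIG4, averaged 5.17 ± 0.624 FPKM in siPGC1a and 5.33 ± 0.348 FPKM in siNC (limma adjusted p = 0.672). XRCC6 has processed pseudogene copies, among them XRCC6P1, and its level is uncertain to that extent.

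**Figure D3:**
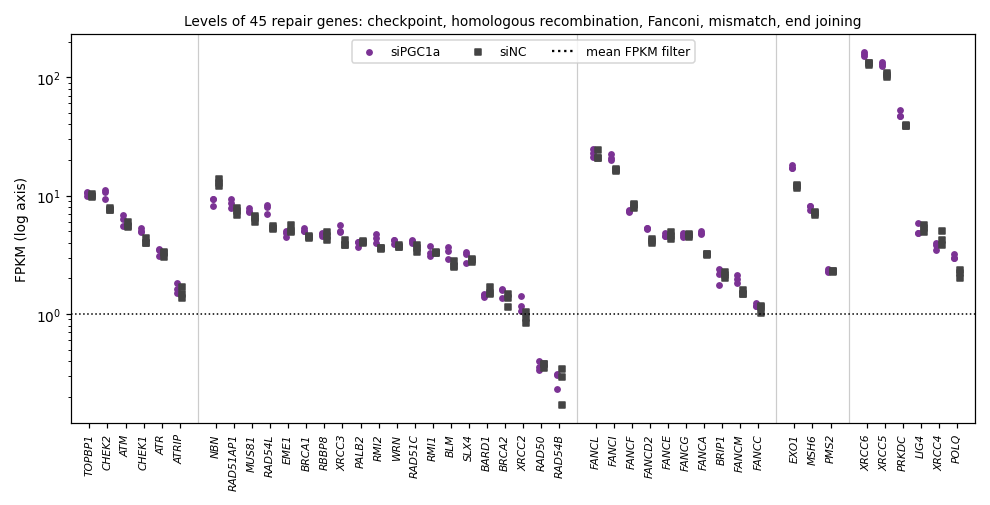
FPKM of all 45 members in each library on a log axis, ordered by mean within each group, with siPGC1a as circles left of siNC as squares and a dotted line at the filter of 1 FPKM. XRCC6 and XRCC5 stand highest, and RAD50 and RAD54B are the members under the filter.

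Levels per length spanned a wide range. The mean over the 6 libraries was 143.5 FPKM for XRCC6, 116.4 FPKM for XRCC5 and 44.0 FPKM for PRKDC, followed by FANCL at 22.4 FPKM and FANCI at 18.8 FPKM. Just inside the filter stood XRCC2 at 1.08 FPKM and FANCC at 1.15 FPKM, and outside it RAD50 at 0.367 FPKM and RAD54B at 0.275 FPKM. The tested members rested on about 103 to 20819 reads in a library, and RAD54B on about 23 to 48.

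Several risers share exons with a gene on the other strand, and the neighbours' own values stand beside them here. FANCA shares 23.6% of its exon bases with ZNF276, which averaged 4.44 FPKM in siPGC1a and 4.72 FPKM in siNC and did not pass (limma adjusted p = 0.307). RAD54L shares 25.1% with LRRC41, at 9.31 FPKM in siPGC1a and 9.7 FPKM in siNC (limma adjusted p = 0.347), and XRCC3 shares 76.7% with KLC1, at 1.82 FPKM in siPGC1a and 1.66 FPKM in siNC (limma adjusted p = 0.233). MUS81 shares 13.9% with the abundant CFL1, which rose (202.5 FPKM in siPGC1a and 181.1 FPKM in siNC, limma adjusted p = 0.00765), and FANCI shares 5.9% with POLG, which rose too (18.7 FPKM in siPGC1a and 16.4 FPKM in siNC, limma adjusted p = 0.00534). EME1, which did not pass, shares 16.4% with LRRC59, which rose (61.5 FPKM in siPGC1a and 44.9 FPKM in siNC, limma adjusted p = 1.86e-05). MSH6 shares 16.2% with FBXO11, at 8.49 FPKM in siPGC1a and 9.42 FPKM in siNC (limma adjusted p = 0.0638). CHEK2 shares 6.7% with HSCB, which fell (8.81 FPKM in siPGC1a and 9.69 FPKM in siNC, limma adjusted p = 0.0482). MUS81 also shares 0.2% with EFEMP2, which fell (16.4 FPKM in siPGC1a and 20.8 FPKM in siNC, limma adjusted p = 0.000731). On the same strand, CHEK1 shares 1.2% with STT3A and BRCA1 1.3% with AC060780.1, and neither neighbour passed. In all, 9 risers overlap a tested gene on either strand, 2 of them (MUS81 and FANCI) one that rose, 2 (CHEK2 and MUS81) one that fell, and 6 only genes that did not pass. What these overlaps contribute to the members' values was not tested.

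The other repair pathways gave a mixed picture. Together they held 73 tested genes, of which 24 rose (32.9%, against 25.6% of all tested genes) and 5 fell (6.85%, against 22.5%). Another 44 did not pass, and the median log2 difference was 0.08. The count of lower genes was 3 without siNC replicate 2, and 2 without siNC replicate 3. Fork protection and checkpoint clamp genes leaned furthest, with 8 of 13 higher, 0 lower and a median of 0.27. CDC25A, the phosphatase that CHEK1 restrains, averaged 7.65 ± 0.219 FPKM in siPGC1a and 4.09 ± 0.149 FPKM in siNC, and RPA2, a subunit of the single-strand binding protein, 60.7 ± 3.83 FPKM in siPGC1a and 41.1 ± 0.748 FPKM in siNC (SD, n = 3 each). Translesion synthesis gave 5 of 12 higher, 0 lower and a median of 0.07, with the polymerase POLH at 10.9 ± 0.414 FPKM in siPGC1a and 7.13 ± 0.418 FPKM in siNC and the ubiquitin ligase RAD18 at 3.87 ± 0.244 FPKM in siPGC1a and 2.47 ± 0.3 FPKM in siNC. Nucleotide excision repair gave 6 of 17 higher, 2 lower and a median of 0.11. DDB2, which finds ultraviolet damage, averaged 19.5 ± 0.624 FPKM in siPGC1a and 16.5 ± 0.5 FPKM in siNC, and CETN2, a partner of the damage sensor XPC, fell to a ratio of 0.821. The chromatin response at breaks gave 3 of 14 higher, 1 lower and a median of 0.05, with BRCC3 (10.2 FPKM in siPGC1a and 8.07 FPKM in siNC) and SHLD2 (3.54 FPKM in siPGC1a and 2.69 FPKM in siNC) higher and TP53BP1, which steers breaks to end joining, lower (6.69 FPKM in siPGC1a and 7.49 FPKM in siNC). Base excision and single-strand break repair gave 2 of 17 higher, 2 lower and a median of 0.04. There PARP2 (20.4 FPKM in siPGC1a and 17.9 FPKM in siNC) and TDG (7.43 FPKM in siPGC1a and 6.32 FPKM in siNC) rose, and the endonuclease APEX1 fell (97.0 FPKM in siPGC1a and 109.6 FPKM in siNC). No test of the differences between these lists was made.

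**Figure D4:**
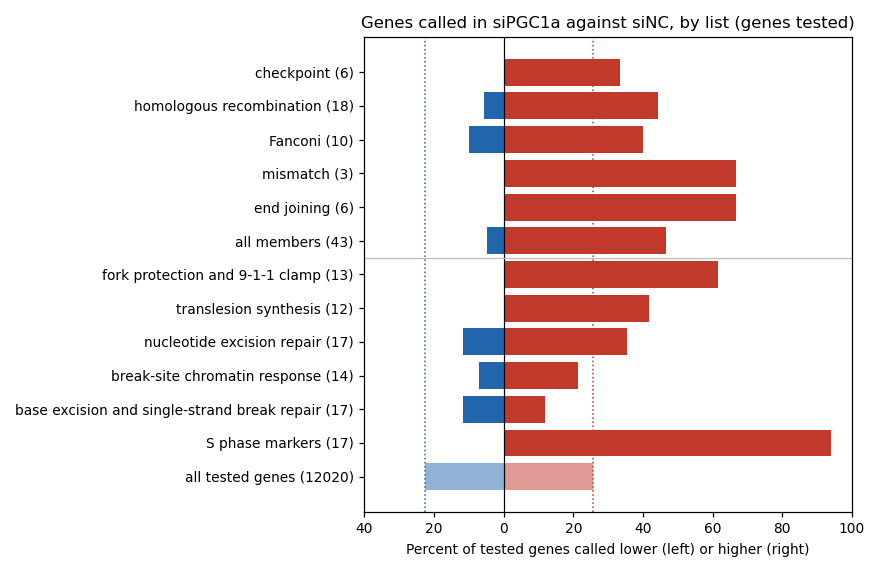
Percent of tested genes called higher (right of 0) or lower (left of 0) in siPGC1a against siNC for the 5 member groups, all members, 5 other repair lists, S phase markers and all tested genes, with the number tested in brackets and dotted lines at 25.6% and 22.5%, the shares of all tested genes. All members stand at 46.5% higher and S phase markers at 94.1%, and base excision repair at 11.8%.

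The word ACACCT, which an earlier look at these data found more often in the 3′ UTRs of lower genes, was looked up in the members after both that fell, NBN and FANCF, were seen to carry it, so their carrying it adds no evidence. Among tested genes with a searched 3′ UTR it stood in 48.6% of the lower, 22.7% of the higher and 32.8% of those that did not pass. These shares come from the data in which the word was first seen, so they are no independent evidence for it. A second word, GTCTTC, was also counted and stood in neither NBN nor FANCF. Its carriers among higher members were BRCA1, RAD51C, MSH6 and XRCC5. Among members that did not pass they were BARD1, WRN, EME1, FANCC, FANCL, BRIP1, PMS2 and XRCC4. The share of all tested genes with GTCTTC was not counted. NBN holds ACACCT at 2 places and FANCF at 1, and ACACCT stood in 3 of 20 higher members (FANCA, BRCA1 and RAD51C) and in 6 of 21 that did not pass. The median length of these 3′ UTRs was 1774 bases for lower and 1098 bases for higher tested genes, and the shares are not adjusted for length. The siRNA sequence is not given in the sources used here, and whether ACACCT bears on these genes was not tested. Windows of 30 bases around ACACCT, from GENCODE transcripts 5′ to 3′ with the word in capitals, are shown for FANCF, which fell, for FANCA and RAD51C, which rose, and for TOPBP1, which did not pass.
FANCF, chromosome 11: ggctggtctcaaACACCTgaccttgtgatc
FANCA, chromosome 16: cccacagacctcACACCTgggggacagagg
RAD51C, chromosome 17: atgtgagccaccACACCTggcctcatttct
TOPBP1, chromosome 3: cttgagttttgaACACCTgaaattgtaatc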

How the data were processed

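Total RNA of 6 libraries was sequenced with a stranded poly(A) kit, per the labels. The authors deposited 1 table of FPKM values per gene symbol and library; the submitters' processing notes name STAR, Picard, featureCounts, DESeq2 and hg19 but give no version or role, and the counting's strand setting is not given in the sources used here. Values were taken as log2(FPKM + 1), a scale that understates changes of low genes. The 12020 genes with a mean of at least 1 FPKM, or PPARGC1A, entered a two-sided comparison of siPGC1a minus siNC in limma 3.58.1 (R 4.3.3, variance trend on, no block for the replicate number), with Benjamini-Hochberg adjustment over all of them at 0.05. The fit was tested on simulated data. The members and lists were chosen with earlier results of these data known.

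Every member over the filter is named, with values in each library for the 3 of largest difference per group and for those called lower, and 2 higher and 1 lower gene per other repair list. No library repeated another: read counts recovered from 2 replicates of a group gave a chi-square of 2.18 to 7.22 per degree of freedom. Depth was recovered as the number of reads that makes the most values of at most 20 reads whole within 0.1 read, with exon lengths from GENCODE 29 (55098 symbols matched); 91.5 to 92.0% came out whole, so read numbers are approximate. The annotation is of another build than the table, so it gave lengths, overlaps and sequences only. The 3′ UTR searched was the longest of a gene's basic coding transcripts. Promoter sequences are RefSeq's, GRCh38.p14; RAD54B, NBN, WRN, RMI2, FANCI, PRKDC and XRCC5 had none. Other settings tried were another pseudocount, filter, scaling or variance model, a replicate block and leaving out each library. One gene that the naming rule picks from the related lists is not reported here.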

Additional observations from a re-analysis of the deposited data

How the results depend on the processing

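Over the 14 other settings, 15 of the 22 called members kept their call in each setting that tested them, 14 higher and 1 lower. The other 7 were BRCA1, RAD51C, RAD51AP1, BLM, RMI2, MSH6 and FANCF. RAD51C lost its call in 8 settings (limma adjusted p up to 0.151), RAD51AP1 in 5 (up to 0.139), BRCA1 in 3 (up to 0.06), BLM without a filter (0.076) and RMI2 without a filter (0.0557). At a mean of at least 5 FPKM, 16 members were tested and 10 rose (62.5%), with a median of 0.21, against 2519 of all 7272 genes (34.6%) and a median of 0.05, and 1607 genes fell. With a pseudocount of 0.1 the members' median was 0.17. Without a filter 15 of 45 members and 18 other repair genes rose, against 7.88% of all 30981 genes, and 1 member and 3 other repair genes fell. Most of these 30981 genes lie under the filter of 1 FPKM, whereas 43 of the 45 members pass it, so these shares do not compare genes of like level. Leaving out 1 library gave 16 to 20 higher and 1 to 2 lower members, a member median of 0.11 to 0.16, and 2 to 5 lower genes among the other repair lists, whose lowest count came without siNC replicate 3. In settings chosen after seeing the data, 11 members rose and 2 fell among those with no exon overlap, and 8 rose and 2 fell among those that also have no named pseudogene copy. The cause of these changes was not tested, beyond the fewer genes that the stricter filter and the overlap and copy settings leave. Deviations of same-numbered libraries from their group means correlated at 0.0766, 0.2607 and -0.0575, and those of other pairs between the groups at -0.3306 to 0.2535. These values do not decide whether the replicate numbers paired the libraries. With a replicate block RAD51C was the member whose call changed (limma adjusted p = 0.0563). Members near the filter rested on few reads (from about 103 in a library).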
